A study of Caenorhabditis elegans with 2 samples.

Results

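The regions described here are the strong peaks of C08G9.2-eGFP in late Caenorhabditis elegans embryos. They are the 235 of 1416 thresholded peaks, or 16.6%, that were selected on signal, with a value in the pooled list above 2 times the list's median. The median signal was 135 and the cut lay at 269.9. The other 1181 peaks of the list lay below the cut and served for comparison. The signal is the authors' value per region, on a scale that the sources used here do not state, so it ranks regions within a list and has no unit.

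C08G9.2 was fused at its C-terminus to a GFP-FLAG tag and carried as a stable transgene, wgIs513, in strain OP513 on the unc-119(tm4063) III background. Both samples, biological replicates 1 and 2 of the only group, were chromatin immunoprecipitations with an antibody to GFP from whole embryos of hermaphrodites, collected 5 h after synchronization by egg bleaching and sequenced. Whole embryos hold all cell types, so a peak cannot be assigned to a tissue, and a strong signal in few cells and a weak one in many cannot be told apart. Embryos without the tag were not compared. Read counts are not in the lists, so depth is unknown. The intervals below are 95% exact Clopper-Pearson intervals that count each peak or gene as a separate observation, although neighbouring ones can share reads. Where a count is 0, the largest share named is instead 3 divided by the number of peaks or genes. That limit is lower than the exact upper limit.

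In ChIP-seq, fragments crosslinked to a tagged protein pile up where the protein sits on or near DNA, and the summit of a peak is the base of highest pile-up. In the compact worm genome many genes lie head to head and share a short upstream region, and many more are joined in operons. Peaks close to gene starts are therefore often close to several genes at once. Transfer RNA genes are read by RNA polymerase III from elements inside the gene, called the A box and the B box. Small nucleolar RNAs guide the chemical modification of ribosomal RNA and often lie in introns of other genes.

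A pair of short elements recurred at strong summits. The first, CTAGGCCA, lay within 50 bp of the summit in 50 of 235 strong peaks (21.3%, interval 16.2 to 27.1), against 47 of 1181 summits below the cut (3.98%) and 359 of 28206 other pooled regions (1.27%). The second, GAGTACAC, lay at 32 strong summits (13.6%, 9.50 to 18.7), 23 below the cut (1.95%) and 110 other regions (0.39%). Windows of the same length centred 150 bp upstream of all 19973 protein-coding gene starts held them in 0.536% and 0.34% of cases. Both strands were searched, and both elements were chosen after the data were seen, from the 7-mers with the largest excess at strong summits, so these shares are a description with no test. Read on the opposite strand, CTAGGCCA also fits the letters of the tRNA A box as searched here, TGGCNNAG. A match to those letters was found at 78 strong summits (33.2%), of which 50 held CTAGGCCA itself, and at 150 summits below the cut (12.7%), of which 47 did. A match is not a binding site.

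Most strong windows with an exact element held just 1 of them: 72 held either and 10 (4.26%) held both, against 66 and 4 below the cut. With up to 2 mismatches over both elements, a paired arrangement was seen, in the order CTAGGCCA and then, after 6 or 7 bases, GTGTACTC, which is GAGTACAC on the other strand. The sites below were read from the RefSeq copy of the WBcel235 genome, the assembly named ce11 in the files, on the strand given. Each is named by its genes with a start within 500 bp, or otherwise by the nearest protein-coding start, and the capitals mark the paired elements, with up to 2 mismatches between them. Those shown lie outside annotated coding sequence and UTRs, and they run from sites with no mismatch to sites with 2.
Y65A5A.2 (nearest start), rank 35, chrIV:16415262-16415300, minus strand: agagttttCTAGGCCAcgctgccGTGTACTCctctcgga
Y65A5A.2 (nearest start), rank 140, chrIV:16415768-16415806, minus strand: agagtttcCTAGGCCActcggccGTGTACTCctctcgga
wrm-1 (nearest start), rank 209, chrIII:5722047-5722084, plus strand: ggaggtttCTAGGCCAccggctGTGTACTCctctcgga
C50B6.3, rank 116, chrV:13313241-13313278, plus strand: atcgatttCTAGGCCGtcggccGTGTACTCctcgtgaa
mib-1, gly-9 and smc-3, chrIII:11290713-11290750, minus strand: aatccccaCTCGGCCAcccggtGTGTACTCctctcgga
elpc-2 and taf-7.2, rank 142, chrIII:12673543-12673581, minus strand: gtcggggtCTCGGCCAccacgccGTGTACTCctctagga
gfm-1 and rict-1, rank 228, chrII:13117307-13117344, plus strand: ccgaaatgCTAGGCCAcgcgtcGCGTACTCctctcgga
F26G1.1, rank 107, chrII:4791463-4791500, plus strand: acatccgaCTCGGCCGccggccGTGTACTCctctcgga
C14B9.8 and mrpl-18, rank 61, chrIII:8144759-8144796, minus strand: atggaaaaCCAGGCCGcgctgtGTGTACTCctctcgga
gly-5 (nearest start), rank 166, chrIII:13187950-13187987, plus strand: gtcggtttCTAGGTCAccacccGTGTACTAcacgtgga

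Most of these sites read alike in the bases after the second element, but less so before the first. They were not compared with a repeat annotation, so whether they are copies of a repeat family was not tested. The 8 bases after GTGTACTC were CTCTCGGA at 10 of the 30 paired sites in strong peaks and differed from it by at most 2 bases at 25 of them. Of the 20 leading 7-mers, 17 lie in the rank 35 site as printed, on either strand. The ranks 35 and 140 sites both lie in intronic sequence of Y65A5A.2. For comparison, 2 strong promoter peaks that hold CTAGGCCA without the second element, and the strongest peak of the list, which holds neither, are shown in the same way.
thoc-5, rank 16, chrIII:5349446-5349485, plus strand: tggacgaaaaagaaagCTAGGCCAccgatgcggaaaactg
sluh-7, rank 29, chrV:10356122-10356161, plus strand: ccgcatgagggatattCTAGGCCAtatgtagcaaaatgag
K12H4.5 (nearest start), rank 1, chrIII:8043940-8043980, plus strand: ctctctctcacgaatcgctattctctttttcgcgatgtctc

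Counted with up to 2 mismatches, the paired site with 6 or 7 bases between its elements was found in 30 of 235 strong peaks (12.8%, 8.78 to 17.7) and in 6 of 1181 peaks below the cut (0.508%). With 6 bases between them, the genome held 50 sites, of which 18 lay in strong peaks, 0 in peaks below the cut, 9 in other pooled regions and 23 in no region. With 7 bases it held 39 sites, of which 12 lay in strong peaks, 6 in peaks below the cut, 7 in other regions and 14 in no region. At each of the other spacings from 0 to 15 bases the genome held 12 to 31 such sites and strong peaks held 0 to 2. The elements came from strong summits, and 6 and 7 bases were taken as the commonest spacings in the same data. The contrasts with peaks below the cut and with other spacings are therefore a description with no test. The site's centre lay a median of 7 bp from the summit, and all 30 lay within 50 bp of it. The peaks with a site ranked from 9 to 228 by signal. Of the genome's 11 sites with no mismatch, 5 lay in strong peaks and 3 in peaks below the cut. The share with a site was much the same in strong promoter peaks (21 of 162, 13.0%) and other strong peaks (9 of 73, 12.3%). On chromosome X, which held 19 strong peaks, 13 of them near a tRNA gene start, 0 had a site. So few peaks cannot tell the share on X from the 12.8% of all strong peaks. The ranks of the 30 peaks with a site ran from 10 to 255 in replicate 1 and from 14 to 306 in replicate 2. The choice by pooled signal limits that range.

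**Figure D1:**
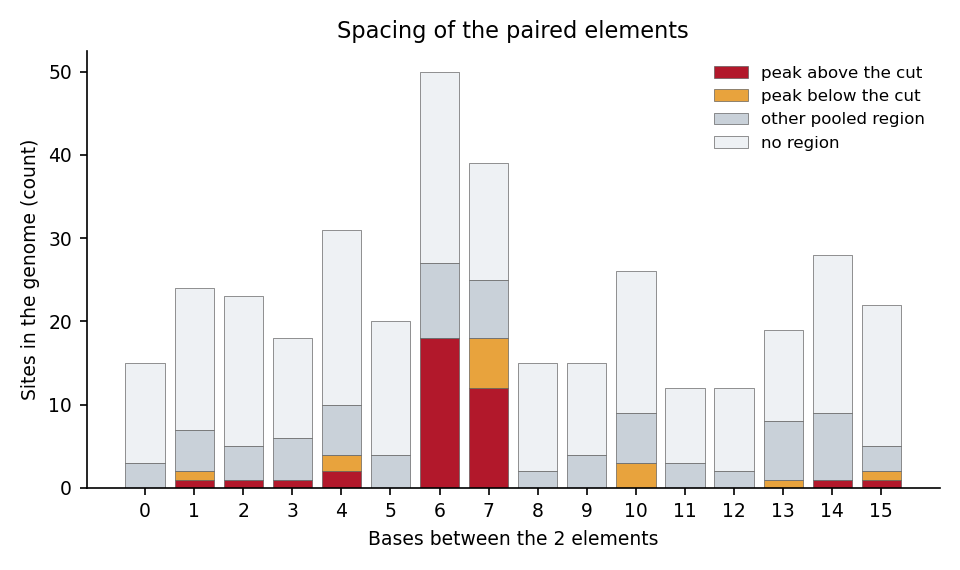
Number of sites in the WBcel235 genome (y axis) at which the 2 elements stand in the order described with a given number of bases between them (x axis, 0 to 15) and at most 2 mismatches, coloured by the kind of region that holds the site. At 6 bases 18 of 50 sites and at 7 bases 12 of 39 sites lie in peaks above the cut, against 0 to 2 sites at each other spacing. The elements were chosen from summits above the cut, so the contrast is a description.

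The strong peaks ran in signal from 270.4 to 2395, with a median of 378 and quartiles of 306 and 486. Peaks below the cut ran from 97 to 269.7. The cut falls in a continuous range. Just inside it lay the peaks at cdc-48.1 (signal 270.6, 152 bp upstream of the start), at the tRNA-Tyr gene WBGene00014486 (270.5) and in an intron of gly-9 (270.4). Just outside lay a tRNA peak in an intron of T15B12.1 (269.7), a peak at the snoRNA gene T27A3.9 (268.8) and an intergenic peak 574 bp from ttb-1 (268.1). The CDC-48.1 protein is an AAA ATPase that extracts ubiquitinated proteins, and GLY-9 is a glycosyltransferase. The strong peaks held 11.8% of the bases covered by the list.

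Strong peaks had a smaller median width than the others, but that contrast rests on a single width that most peaks below the cut share. The median of strong peaks was 258 bp, with quartiles of 219.5 and 299.5 bp and a range of 108 to 463 bp, whereas the median and both quartiles below the cut were 430 bp. Exactly 430 bp was the width of 13 strong peaks (5.53%) and of 1046 peaks below the cut (88.6%). Under 300 bp were 176 strong peaks and 134 below the cut, and only strong peaks were wider than 430 bp. Why so many peaks have the same width was not tested, so the medians do not show that stronger signal goes with narrower regions. Widths changed little across the cut itself, since 5 of the 50 strong peaks of lowest signal and 6 of the 50 peaks just below the cut had that width. Among strong peaks, 4 overlapped another strong peak. They were the peaks of ranks 4 and 31 upstream of the ubiquitin ligase gene eel-1, with summits 207 bp apart, and a pair near Y62F5A.12, 199 bp apart. Another 16 overlapped a peak below the cut. Width and signal come from the same reads, so no test was made.

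**Figure D2:**
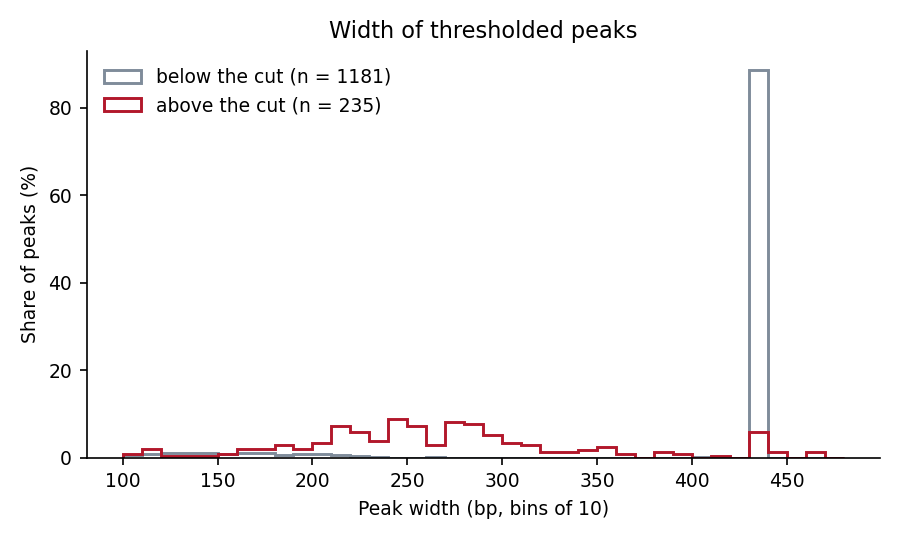
Distribution of peak width in bins of 10 bp (x axis) as the share of peaks in each group (y axis, percent), for the 235 peaks above the cut and the 1181 below. Peaks above the cut spread around a median of 258 bp, and 88.6% of those below are exactly 430 bp wide.

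Every strong peak had a region in both replicate lists, which held 27783 and 29382 regions. The median rank was 117 in each, the worst was 433 in replicate 1 and 340 in replicate 2, and 193 of 235 (82.1%) ranked within the first 235 of both. Below the cut the median ranks were 832 and 815.5, and 1121 of 1181 peaks (94.9%) ranked beyond the first 235 in both. Overlapping peaks can share a replicate region, and the 235 strong peaks matched 233 distinct regions in each list. Spearman's rho between the replicate signals was 0.833 over the 235 strong peaks and 0.546 over 1180 peaks below the cut, as a description over regions that share their libraries. The pooled signal that chose the peaks draws on both replicates, so none of this is independent of the choice. The replicate 1 signal was a median of 0.926 times the replicate 2 signal at strong peaks, with quartiles of 0.829 and 1.01.

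The strong peak with the worst rank in either replicate was intergenic, 6029 bp from K02D3.1 on chromosome X, with rank 433 in replicate 1 and 131 in replicate 2. The peak at vps-20 and eif-4A3, genes of an endosomal sorting subunit and an RNA helicase of the exon junction complex, ranked 146 and 340. The intronic peaks in gly-9 and in scc-2, a cohesin loader gene, ranked 162 and 330 and 313 and 141. The peak at F56B3.11 and ech-5, which encode mitochondrial proteins, ranked 312 and 162. In these 5 peaks, chosen by their worst rank in either replicate, the pooled signal lay between 270.4 and 291.8, close to the cut. A poor rank goes with a low signal, so that closeness follows in part from the choice. Worst rank does not measure unevenness. The peak at Y75B8A.31 and pph-4.1, for example, had signals of 249 in replicate 1 and 165 in replicate 2, and a pooled signal of 414.

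**Figure D3:**
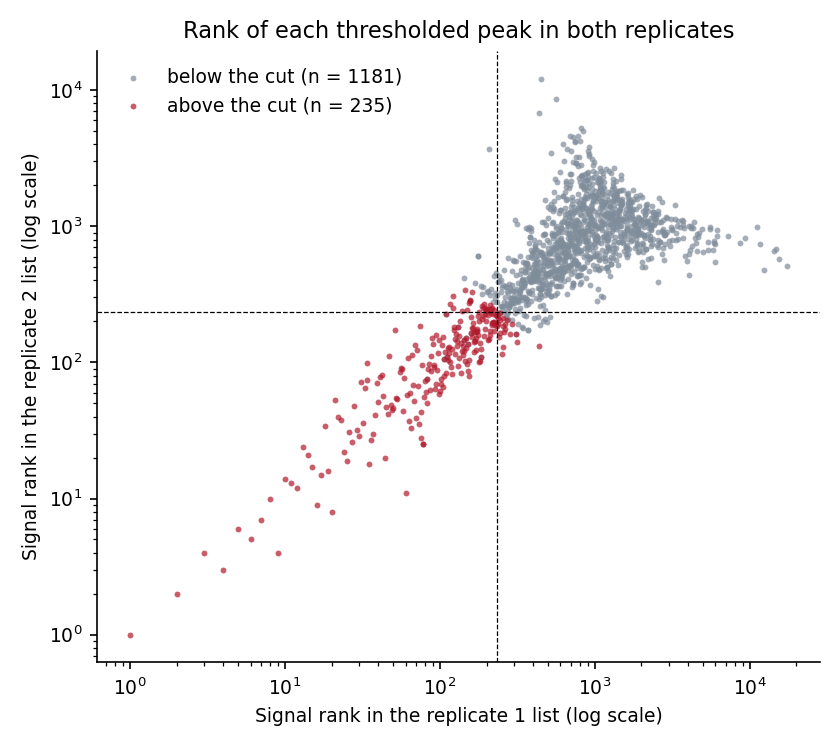
Signal rank of each thresholded peak in the replicate 1 list (x axis, log scale) and the replicate 2 list (y axis, log scale), for the 235 peaks above the cut and the 1181 below, with dashed lines at rank 235. All peaks above the cut lie within rank 433 of replicate 1 and rank 340 of replicate 2.

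Strong peaks lay at promoters more often than the peaks below the cut. Promoter here means that a coding gene of Ensembl WBcel235, release 115, starts no more than 500 bp from the summit. There were 162 among 235 strong peaks (68.9%, 62.6 to 74.8) and 495 among 1181 peaks below the cut (41.9%, 39.1 to 44.8), an odds ratio of 3.08 (two-sided Fisher exact test, adjusted p = 2.15e-13 over 8 classes). Coding exons held 0 strong summits, which allows a share of up to 1.28%, against 68 below the cut (5.76%, exact adjusted p = 2.27e-05). The bodies of non-coding genes held 5 (2.13%) against 98 (8.30%, exact adjusted p = 0.000793). Intergenic sequence held 20 (8.51%) against 205 (17.4%, exact adjusted p = 0.000829), and introns 34 (14.5%) against 255 (21.6%, exact adjusted p = 0.0208). The shares in 5′ UTRs (0 against 13), in 3′ UTRs (1 against 6) and within 500 bp downstream of a gene (13 against 41) did not pass. Each summit has 1 class and promoters come first, so a larger promoter share leaves less for the classes after it. Outside promoters introns held 34 of 73 strong and 255 of 686 other peaks, which was not tested. With a window of 250 bp the intron and intergenic differences did not pass (exact adjusted p = 0.17 and 0.385).

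**Figure D4:**
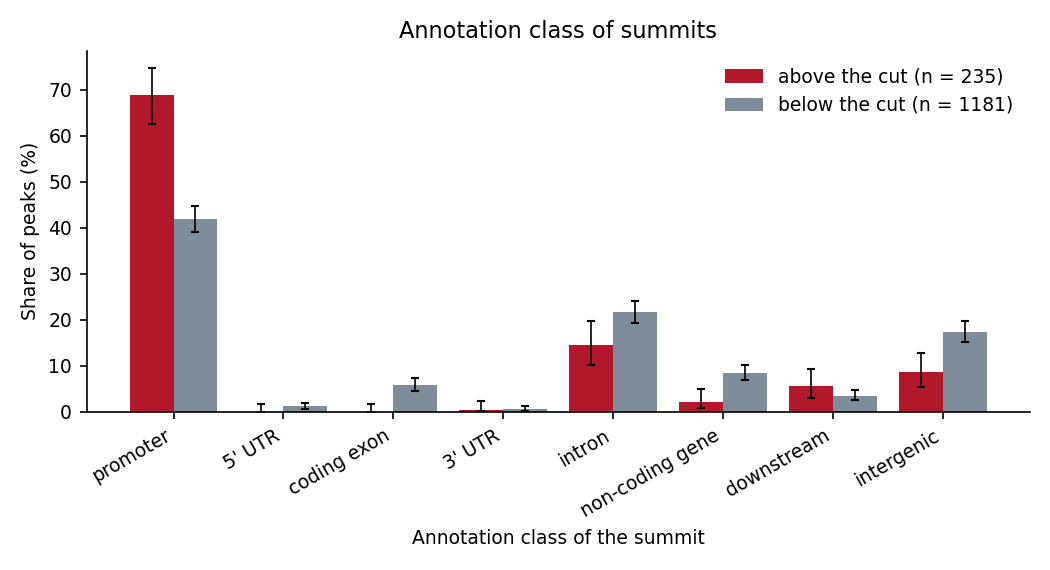
Share of peaks in each annotation class of the summit (y axis, percent, from 0), for the 235 peaks above the cut and the 1181 below, with 95% exact intervals as error bars. Promoters hold 68.9% of peaks above the cut and 41.9% of those below, and coding exons hold 0% and 5.76%.

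Within promoters, the summits of strong peaks and of the others stood in much the same place. The strong summits lay upstream of the nearest coding start in 146 of 162 cases (90.1%) and the others in 431 of 495 (87.1%), a difference of 3.05 percentage points that did not pass (exact adjusted p = 0.335). The median positions relative to that start, negative upstream, were -161 bp and -157 bp. More than 1 coding start lay within 500 bp of 59 of 162 strong summits (36.4%, 29.0 to 44.3) and of 125 of 495 others (25.3%, 21.5 to 29.3; odds ratio 1.70, exact adjusted p = 0.0172). One example is the peak 137 bp upstream of mrps-35 and 310 bp inside sws-1 (rank 34, signal 294.7 in replicate 1 and 258 in replicate 2). Another is the peak of mib-1, gly-9 and smc-3 (157 and 225). Without replicate 1 the difference did not pass (exact adjusted p = 0.0697).

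The 2 strongest promoter peaks lay at vps-51 and lin-35 (signal 976), genes for a Golgi tether subunit and the worm retinoblastoma protein, and at K10D2.5 (924). The 2 strongest intronic peaks lay in M01F1.8 (signal 1429) and in hmt-1 (673.5), a gene for an ABC transporter of heavy-metal tolerance. The 2 strongest intergenic peaks lay near K12H4.5 (2395) and eel-1 (975.5). The 2 strongest downstream peaks lay at snoRNA genes, T06C12.16 (516.5) and F59C6.15 (516.2), and the 2 strongest in non-coding gene bodies at a tRNA-Leu gene (512) and at the microRNA gene mir-51 (375). The single strong summit in a 3′ UTR, nearest to rtcb-1, a gene for the tRNA-splicing ligase, had a signal of 319. Of all 235 strong peaks, 34 had neither a coding nor a non-coding gene start within 500 bp, piRNA genes not counted.

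Among non-coding genes, starts of snoRNA genes lay near strong summits more often than near the others. They lay within 500 bp of 22 strong summits (9.36%, 5.96 to 13.8) and of 45 others (3.81%, 2.79 to 5.07), an odds ratio of 2.61 (two-sided Fisher exact test, adjusted p = 0.00527 over 10 biotypes). Outside promoters the counts were 16 of 73 and 34 of 686 (21.9% against 4.96%, exact adjusted p = 3.93e-05). The strong summits lay upstream of the snoRNA start in 20 of 22 cases and those below the cut in 41 of 45, at median positions of -44.5 bp and -51 bp from the start. The 22 peaks reached 24 snoRNA genes. The strongest were T03F7.8 in an intron of cutl-18 (signal 263.7 in replicate 1 and 317 in replicate 2, summit 46 bp upstream) and the pair C51F7.3 and C51F7.4 in an intron of frm-7 (pooled signal 580.5). ZK994.7 in an intron of the peroxidasin gene pxn-1 (479, 19 bp upstream) and D1046.6 in cfim-2, a gene for a polyadenylation factor (379, 31 bp upstream), followed the same arrangement. The snoRNA call was lost without replicate 2 (7.85% against 4.09%, exact adjusted p = 0.0933) and at a cut of 3 times the median (8.08% against 4.48%, exact adjusted p = 0.444).

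Transfer RNA gene starts lay near 19 strong summits (8.09%) and 148 others (12.5%), a difference that did not pass (odds ratio 0.614, exact adjusted p = 0.198). At a cut of 1.5 times the median the shares were 12.3% and 11.6%, and the difference did not pass either. At a cut of 3 times the median it passed, with 1.01% against 12.6% (exact adjusted p = 0.000336), so few of the strongest peaks lay at tRNA genes. The strong ones were close to the start itself, at a median of 1 bp after it, and led by tRNA-Leu WBGene00000308 (223 in replicate 1 and 291.5 in replicate 2). They served 21 genes for many amino acids, among them 3 for tRNA-Ala and 4 for tRNA-Ile. Reads within identical tRNA copies cannot be placed on 1 copy, so which copy was bound is uncertain. Genes of the broad biotype ncRNA lay near 27 strong summits (11.5%) and 324 others (27.4%, odds ratio 0.343, exact adjusted p = 5.51e-07), but outside promoters the difference of 17 of 73 against 240 of 686 did not pass (exact adjusted p = 0.254). For lincRNA, microRNA, piRNA, pseudogene, rRNA, snRNA and antisense genes the strong counts were 0 to 3, and none passed (exact adjusted p from 0.4 to 1).

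Chromosome X held few strong peaks. It carried 19 of 235 (8.09%, 4.94 to 12.3) against 244 of 1181 below the cut (20.7%, 18.4 to 23.1), an odds ratio of 0.338 (two-sided Fisher exact test, adjusted p = 8.65e-06 over 6 chromosomes). Among promoter peaks alone it carried 5 of 162 against 81 of 495 (exact adjusted p = 1.06e-05). Of the 19 strong peaks on X, 13 had a tRNA gene start within 500 bp, and the annotation places 276 of 612 tRNA genes (45.1%) but 2731 of 19973 protein-coding genes (13.7%) on X. Without peaks near tRNA genes X held 6 of 216 strong peaks (2.78%) and 186 of 1033 others (18%, exact adjusted p = 9.44e-10). The 6 were the promoter peaks of T13C5.6 (signal 479), adm-4 (315), which encodes a membrane metalloproteinase, and acl-1 (281), an acyltransferase gene, a peak in an intron of inso-1 (280.5), and the intergenic peaks nearest to W02H3.3 (301) and K02D3.1 (276). No other chromosome passed, the closest being chromosome III with 54 strong peaks (23% against 17.4%, exact adjusted p = 0.156). At a cut of 3 times the median chromosome V passed as well, with 24.2% of strong peaks against 12.8% (exact adjusted p = 0.0101).

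In all, 222 of 19973 protein-coding genes (1.11%) had a strong summit within 500 bp of their start, and 603 more (3.02%) had only a peak below the cut. The start of C08G9.2 itself had neither. Counted by the nearest coding start of each peak alone, 161 genes had a strong peak. Some genes named below therefore share a peak with a gene that starts nearer to the summit. Of the 222 genes, 200 were reached first by a peak beyond the 25 strongest, and these are described from here on. The lists of genes used for this were chosen with earlier results of these data known, so their counts stand beside the 1.11% as a description without a test. Of the 222, 71 (32%) belonged to any of the 28 lists, against 19.8% of all protein-coding genes. Of the 825 genes with any thresholded peak, 26.9% had a strong one, which is the share to set a list's strong peaks against where strong and weaker peaks are compared. The lists are not complete. For example, sluh-7, a splicing factor gene, rae-1 and Y34D9A.3, of mRNA export, and let-630, a mitochondrial ribosomal protein gene, have strong peaks and are in none. The replication and repair list lacks mrt-2 (451) and hpr-9 (296), and the chromatin list lacks hda-11 (485) and hda-6 (315), which have strong peaks too. All these genes were noticed after their values were seen, and the shares of those lists depend on which genes they hold.

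The 12 peaks of ranks 26 to 37 led the rest. The first lay inside spd-5, a scaffold gene of the centrosome, 398 bp upstream of npp-6, a nuclear pore gene (signal 259 in replicate 1 and 309 in replicate 2). The next lay at F25H9.7 and F25H9.6 (284 and 286), which encode a succinate dehydrogenase assembly factor and a flavoprotein-domain protein. The peak upstream of atad-3, a mitochondrial membrane ATPase gene, had values of 275 and 289.7, and that of sluh-7, a splicing factor gene, 293 and 274. Then came tasp-1, a protease gene (276 and 286), eas-1, a Golgi transport gene (263 and 294), and ufd-3, a gene of ubiquitin fusion degradation (262 and 288). The mrps-35, Y50D4C.5 and W04C9.4 promoters followed with pooled signals of 553, 548 and 535, and the other 2 of the 12, near eel-1 and in Y65A5A.2, had no start within 500 bp. The replicate 2 value was the higher in 8 of these 10 promoter peaks, all but those of sluh-7 and mrps-35.

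Genes of protein synthesis and folding had strong peaks in larger shares than the 1.11% of all genes, but for some lists the same held for weaker peaks. Of the genes with any peak, 28.6% of cytosolic ribosomal protein genes and 27.3% of translation factor genes had a strong one, close to the 26.9% of all such genes, against 10 of 19 (52.6%) for chaperonin, prefoldin and heat shock genes and 3 of 4 for tRNA synthetase genes. Of 83 cytosolic ribosomal protein genes 6 had a strong peak (7.23%, 2.70 to 15.1) and 15 a peak below the cut. They were rps-24 (473), rps-26 (389), rps-23 (377.5), rpl-15 (327), rpl-35 (291) and rpl-3 (284), and their summits lay 264 to 449 bp upstream of the start. A snoRNA gene, F39B2.14, also starts near the rps-26 peak. Among 48 translation factor genes there were 3, the initiation factor genes eif-3.B (518) and eif-3.E (444), and eif-4A3 (280). Of 31 tRNA synthetase genes 3 had one, the mitochondrial ears-2 (524), kars-1 (303) for lysine and mars-1 (281) for methionine, and 1 had a weaker peak. Of the genes of chaperonin, prefoldin and heat shock proteins 10 had a strong peak (9.71%, 4.75 to 17.1), 8 of them beyond the 25 strongest. The leading 5 were cyn-10 (487), a prolyl isomerase gene, ahsa-1 (445), an HSP90 activator gene, pfd-5 (376), a prefoldin subunit gene, and the J-domain genes dnj-28 (374) and dnj-12 (338). The ahsa-1 and dnj-12 summits lay nearer to the starts of C01G10.7 (136 bp) and mtx-1 (62 bp).

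Mitochondrial genes were counted in 3 lists, in which 5, 1 and 7 further genes had a weaker peak alone. Of 53 genes of mitochondrial import and maintenance 4 had a strong peak (7.55%), mff-2 (470), a fission factor gene, tufm-2 (401) and gfm-1 (273), elongation factor genes of the organelle, and fzo-1 (341), the mitofusin gene. Of 66 mitochondrial ribosomal protein genes 2 had one, mrps-35 (553) and mrpl-18 (484). Of 75 genes of the respiratory chain and ATP synthase 3 had one, atp-5 (376), sco-1 (308), for copper delivery to cytochrome oxidase, and ndua-2 (289). The summit at atp-5 lay nearer to the start of lmtr-3 (31 bp), and that at ndua-2 nearer to the start of dnj-29 (155 bp). By the word mitochondrial in the RefSeq product, 15 of 299 genes (5.02%, 2.83 to 8.14) had a strong peak.

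Genes that process RNA were counted in 3 lists, in which 8, 6 and 2 further genes, in the order given here, had a weaker peak alone. Of 80 splicing genes 4 had a strong peak (5.00%), mog-3 (513), snr-1 (429), which encodes an Sm protein, smu-2 (356) and mog-4 (334). Of 41 genes of mRNA export and processing 3 had one, thoc-5 among the 25 strongest, then exos-8 (397.5) of the exosome and cpsf-1 (369) of the cleavage factor. Of 31 ribosome biogenesis genes 1 had one, fib-1 (522), which encodes fibrillarin, the methyltransferase of box C/D snoRNPs, and shares its peak with mut-15, a gene of small RNA amplification. More genes of these kinds showed in the RefSeq products, through words chosen after the products of the strong genes were seen. Of 27 genes with products that name ribosome assembly or rRNA processing, 9 had a strong peak (33.3%, 16.5 to 54) and 1 a weaker peak, all 9 beyond the 25 strongest. They were fib-1, exos-8, F10E9.11, Y48A6C.4, Y54E10A.10, Y48B6A.1, F53E10.6, Y49F6B.2 and Y46E12BL.2. Of 14 genes with products of tRNA modification, 5 had a strong peak (35.7%, 12.8 to 64.9), C45G9.2 (503), tag-124 (415), Y73B6BL.29 (408), C01G10.10 (394) and elpc-2 (341). Since the words came from the strong genes, these 2 shares are no independent evidence.

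Genes of chromosomes and the cell cycle had more weaker than strong peaks, as did all genes with a peak. A weaker peak alone was seen at 12 cell cycle, 12 replication and repair, 15 chromatin and 4 nuclear pore genes. Of the genes with any peak, 33.3%, 20%, 28.6% and 42.9% in these lists, in that order, had a strong one, against 26.9% of all. Of the cell cycle and mitosis genes 6 had a strong peak (5.36%), spd-5 (571), hcp-6 (524) of condensin, smc-3 (382) of cohesin, bir-1 (329.6) of the chromosomal passenger complex, bub-1 (272) of the kinetochore checkpoint, and cdc-48.1 (270.6), which also has the snoRNA gene C06A1.9 in reach. Of 75 replication and repair genes 3 had one, mcm-10 (459), pole-1 (420) and psf-2 (351), all of the replication fork. Of 97 chromatin and synMuv genes 6 had one (6.19%), 3 of them beyond the 25 strongest, mys-1 (375), an acetyltransferase gene, set-2 (367), a histone H3 lysine methyltransferase gene, and lin-61 (272), which shares its peak with bub-1. Of 44 nuclear pore and transport genes 3 had one, npp-6 (571), lem-2 (345) of the inner nuclear membrane and npp-8 (286). In the transcription machinery list 1 of 99 genes had one, taf-7.2 (341), close to the share over all genes.

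Membrane traffic genes had more weaker than strong peaks, as did all genes with a peak. Of the genes with any peak, 31.6% of the vesicle traffic list and 17.6% of the secretion list had a strong one, against 26.9% of all. Of 170 genes of vesicle traffic and autophagy 6 had a strong peak (3.53%), 5 of them beyond the 25 strongest. These 5 were snx-13 (429), nsf-1 (428), a gene for the ATPase that takes SNARE complexes apart, exoc-7 (401), sec-15 (305) and vps-20 (280). Both exoc-7 and sec-15 are of the exocyst, and sec-15 lies on X beside a tRNA-Glu gene. The snx-13 peak is also that of snr-1, the exoc-7 peak that of tufm-2, and the vps-20 peak that of eif-4A3. Of 67 genes of the endoplasmic reticulum and secretion 3 had a strong peak, ufd-3 (557.5), copz-1 (321.5) of the COPI coat, and sec-15, and 14 had a weaker peak.

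Genes of differentiated cells and of large receptor families had few peaks of any strength, body wall muscle genes apart, so their low counts are not particular to strong peaks. Of 1366 chemoreceptor genes 0 had one, which allows a share of up to 0.22%, and 7 had a weaker peak. Of 274 nuclear hormone receptor genes 0 had one (up to 1.09%) and 3 a weaker peak, and of 124 homeobox and fate regulator genes 0 (up to 2.42%) and 2. Of 318 neuronal signalling genes 6 had a weaker peak and 1 a strong one, the potassium channel gene twk-5 (279), whose summit lay 500 bp inside the gene start and near a snoRNA gene, B0334.12. Of 214 collagen and cuticle genes 4 had a weaker peak and 2 a strong one, col-71 (341) and col-85 (299), the latter beside a tRNA-Ile gene and with the summit 360 bp after the start. Lists with weaker peaks and 0 strong ones were body wall muscle (7 of 50 genes with a weaker peak), the proteasome (4 of 33), histones (7 of 72), ubiquitin and SUMO conjugation (7 of 109) and the germline and maternal genes (1 of 63). With 0 strong peaks among 33 proteasome genes a share of up to 9.09% remains possible, so the smaller lists do not separate from the others.

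**Figure D5:**
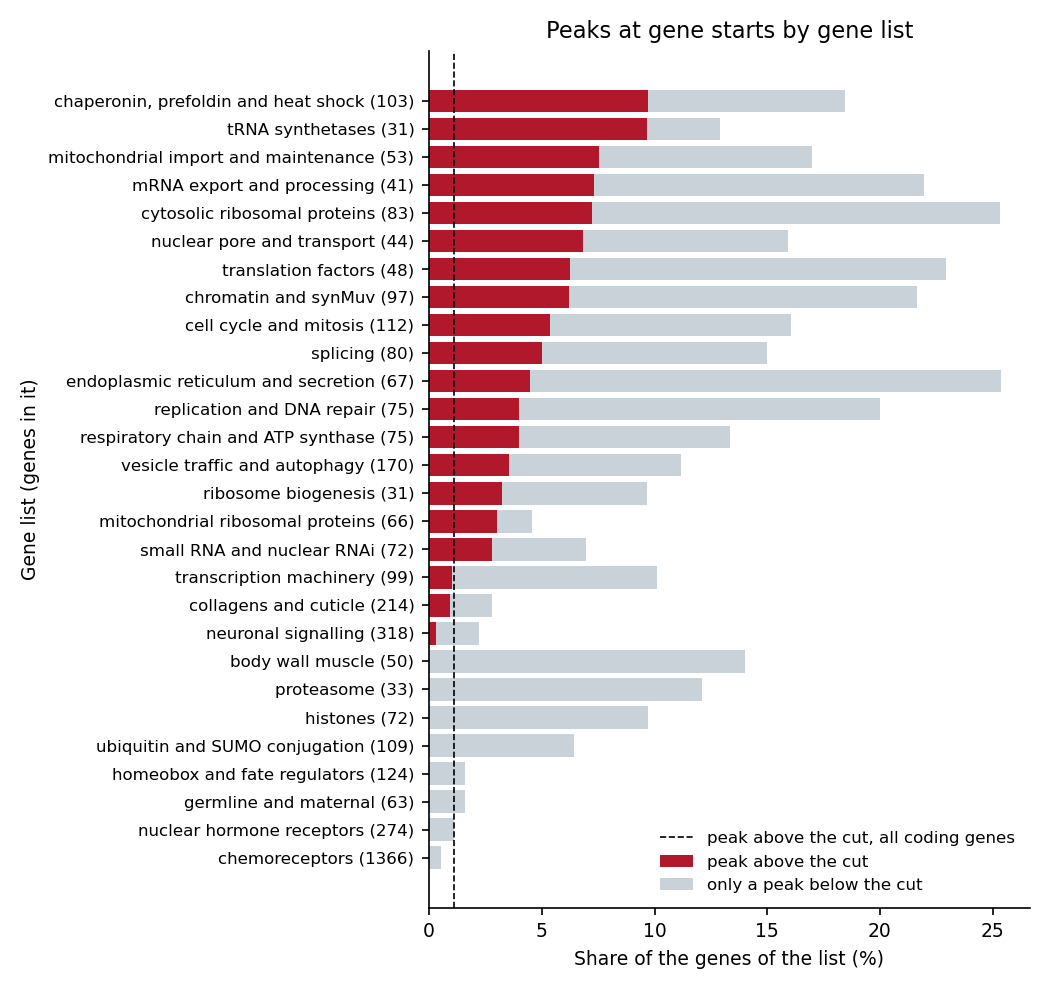
Share of the genes of each list (x axis, percent) that have a peak above the cut within 500 bp of the start (dark bars) or only a peak below the cut (light bars), with the number of genes in brackets and a dashed line at 1.11%, the share of all 19973 protein-coding genes with a peak above the cut. Chaperonin, prefoldin and heat shock genes (9.71%) and tRNA synthetase genes (9.68%) have the largest shares, and 8 lists have 0 genes with a peak above the cut.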

How the data were processed

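ChIP-seq peak lists of C08G9.2-eGFP from 2 biological replicates were analysed. Per the labels and the deposited text records, the authors made a region list for each replicate and for the pooled reads, holding peaks together with background, and a list thresholded by irreproducible discovery rate. The authors' deposited signal per region is the unit used here, on a scale that is not stated. Neither aligner, peak caller nor threshold is named in the labels or those records, and the control library was not analysed here. Per the labels, the lists exist on ce10 and ce11. The ce11 lists were joined to Ensembl release 115 gene models and RefSeq products, and coordinates are 1-based.

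A peak was strong above 2 times the median signal. In each replicate it took the region of highest signal that overlapped it by at least 1 bp. Other pooled regions overlap no thresholded peak (28206 of 30000). Each summit took the first class that applied: promoter, then a UTR or coding exon, then intron, non-coding gene body, 500 bp downstream of a gene, and intergenic. Shares were compared with two-sided Fisher exact tests, adjusted by the Benjamini-Hochberg method within 8 classes, 10 biotypes with at least 20 genes, 6 chromosomes or 2 promoter measures, at 0.05, after the test had been run on simulated data. Signal, width and ranks were described without a test, because signal chose the peaks.

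The members, gene lists and tests were chosen with earlier results of these data known. Of 826 gene symbols given, 27 were not in the annotation. The text names up to 5 genes per list beyond the 25 strongest peaks by signal, the genes at the next 12 peaks, at the 3 peaks on either side of the cut, at the 5 peaks of worst replicate rank and at the 2 strongest peaks per class, and C08G9.2. The other genes, the snoRNA, tRNA and X examples, the sequences and the product words were picked with their values in view. The alternatives tried were cuts at 1.5 and 3 times the median, windows of 250 and 1000 bp, any transcript start, nearest start alone, non-coding genes before promoters, no tRNA peaks, the ce10 list and each replicate left out. Added after seeing the data were summit windows of 201 bp and splits by promoter class. Python 3.11.15, numpy 2.4.6, pandas 2.3.3, scipy 1.17.1 and matplotlib 3.10.9 were used.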

Additional observations from a re-analysis of the deposited data

How the results depend on the processing

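No paired analysis was possible because there was 1 group. The promoter, coding exon, non-coding gene and chromosome X differences kept their direction and passed under each alternative run on them. The number of strong peaks was 382 at a cut of 1.5 times the median and 99 at 3 times, and it was 213 to 242 with a replicate left out, by the signal of the other replicate, of which 193 and 211 were among the 235. At 3 times the median there were 98 genes with a strong peak, the share within the first n regions of both replicates was 86.9%, and several differences in percentage points did not pass, intergenic (-7.31), snoRNA (3.6) and more than 1 coding start (4.99), while tRNA (-11.6) and chromosome V (11.4) passed. At 1.5 times the median the share of summits upstream of the nearest start differed by 6.78 points and passed (exact adjusted p = 0.0129). The tRNA difference at that cut was 0.698 points and did not pass. With a window of 250 bp there were 142 genes, and the intron (-4.99), intergenic (-3.18) and more than 1 coding start (6.56) differences did not pass. With non-coding genes before promoters the intron difference (-5.2) did not pass. Leaving out a replicate in turn, the downstream difference ranged from 2.88 to 3.25 points and passed without replicate 1, snoRNA from 3.76 to 4.93 and missed without replicate 2, and more than 1 coding start from 9.19 to 12.2 and missed without replicate 1. Outside promoters, splits chosen after seeing the data gave -11.7 points for ncRNA, which did not pass, and 17.8% of strong windows with either element, against 30.6% of all. The causes were not tested. Depth is unknown, and with 1 group no comparison between conditions and no spread over animals can be given.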

Other observations

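Among other letter patterns searched within 50 bp of summits, the GAGA repeat GAGAGAG was found at 8 of 235 strong summits (3.40%, 95% exact interval 1.48 to 6.6), at 149 of 1181 below the cut (12.6%, 10.8 to 14.6) and at 1076 of 28206 other pooled regions (3.81%). The difference was not tested. The letters of the tRNA B box, GTTCGANNC, were found at 8 strong summits (3.40%) and at 68 below the cut (5.76%). CCAAT was found at 18.3% of strong summits and 16.3% of those below. The G and C content of the same windows had a median of 47.5% at strong summits, 51.5% below the cut and 44.6% in other regions. Of the 222 genes with a strong peak, 14 (6.31%, 3.49 to 10.4) had an uncharacterized product, against 37 of 603 genes with a weaker peak alone (6.14%) and 1816 of 19137 others (9.49%). Another thresholded summit lay within 1000 bp of 27 strong summits (11.5%) and of 81 others (6.86%), and within 5000 bp of 59 of 235 and 273 of 1181 (23.1%), shares that lie close together.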
